A study of Mus musculus with 36 samples.

Results

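Fatty acid elongases and desaturases set the length and the number of double bonds of the fatty acids a liver cell makes or takes up. The measured members were 5 elongases (Elovl1, Elovl2, Elovl3, Elovl5 and Elovl6) and 5 desaturases (Fads1, Fads2, Fads3, Scd1 and Scd2), taken by symbol from the gene names of every count file, and they made up 10 of the 24421 genes counted. All 10 were found once, on 1 chromosome each, and all 10 passed the filter on low counts in every comparison.

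Liver RNA of 36 male C57BL/6J mice was sequenced, 1 library per mouse. All mice had been bought at 7 weeks of age, acclimated for 1 week and then kept for 12 weeks on CDAHFD, a high-fat diet of defined amino acids without choline that induces features of non-alcoholic steatohepatitis. In the HFD experiment the mice then were moved to another high-fat diet, the HFD, in which choline was at a normal level, for 2 weeks and were given either Fc at 4.3 mg/kg (n = 10) or Fc(mML1)B3 at 5 mg/kg (n = 10), injected under the skin once a week. In the standard diet experiment they ate standard chow for 10 days and were injected on days 1, 4 and 7 with either Fc at 4.3 mg/kg (n = 9) or Fc(mML1)B3 at 5 mg/kg (n = 7). Fc(mML1)B3 is an antibody Fc fragment that carries a macrocyclic peptide binding the receptor Met, and it was built as a mimetic of hepatocyte growth factor. Fc is the same fragment without the peptide. The disease had been induced without dietary choline, a model with poor weight gain, and whole liver was used, so fewer cells of a type and less RNA per cell cannot be told apart. Libraries held 14949035 to 28466853 reads on genes, with a median of 23558194.5. Levels are given as CPM (counts scaled to the library total) after TMM scaling over all libraries, and comparisons between genes as CPM per kilobase of exon.

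Elongases catalyse the first, condensing step of the endoplasmic reticulum cycle that adds a pair of carbon atoms from malonyl-CoA to an acyl-CoA. ELOVL6 elongates palmitate and palmitoleate, ELOVL5 and ELOVL2 elongate polyunsaturated acyl-CoA, and ELOVL1 and ELOVL3 act on saturated and monounsaturated acyl-CoA of long and very long chains. Scd1 and Scd2 encode stearoyl-CoA desaturases, which make oleate and palmitoleate, Fads2 encodes the delta-6 desaturase and Fads1 the delta-5 desaturase of polyunsaturated fatty acid synthesis, and FADS3 acts on sphingoid bases of ceramides. In liver, many of these genes are known targets of SREBP-1c, and Elovl3 is known for a daily rhythm in male mice.

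All 5 desaturases and 1 elongase lie on chromosome 19. Fads3 (chr19:10041548-10059671, plus strand), Fads2 (chr19:10064164-10101503, minus strand) and Fads1 (chr19:10182888-10196872, plus strand) form a cluster, with 4492 bases between Fads3 and Fads2 and 81384 between Fads2 and Fads1. Scd2 (chr19:44293676-44306862, plus strand) lies 87587 bases from Scd1 (chr19:44394450-44407709, minus strand), and Elovl3 lies at chr19:46131899-46135694 on the plus strand. The others are Elovl1 (chr4:118428093-118432952, plus), Elovl2 (chr13:41182382-41220403, minus), Elovl5 (chr9:77917365-77984519, plus) and Elovl6 (chr3:129532386-129638493, plus), all on mm10. Reads were counted without regard to strand, and Elovl1 shares 52 exonic bases (2.68% of its exons) with Cdc20 on the opposite strand, Elovl3 shares 9 with Pitx3, and Scd2 shares 61 with Mir5114.

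RefSeq promoter windows on GRCm38.p6, the patched release of mm10, were at hand for 6 members (Elovl1, Elovl2, Elovl5, Elovl6, Fads2 and Fads3). The 250 bases before the gene start are printed for the 4 of them with the largest fold changes among those whose RNA differed between Fc and Fc(mML1)B3 mice, because these are the stretches where a shared sequence feature would be sought. They are Elovl5 (chr9:77917115-77917364, plus strand), Elovl6 (chr3:129532136-129532385, plus strand), Fads2 (chr19:10101504-10101753, minus strand) and Fads3 (chr19:10041298-10041547, plus strand). Each reads 5′ to 3′ on the strand of its gene, and capitals mark matches, on either strand, to the motifs listed after them.
Elovl5: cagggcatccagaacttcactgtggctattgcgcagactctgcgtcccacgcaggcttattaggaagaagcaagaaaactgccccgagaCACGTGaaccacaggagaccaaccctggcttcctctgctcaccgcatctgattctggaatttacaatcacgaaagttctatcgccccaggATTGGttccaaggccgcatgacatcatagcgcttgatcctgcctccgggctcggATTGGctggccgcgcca
Elovl6: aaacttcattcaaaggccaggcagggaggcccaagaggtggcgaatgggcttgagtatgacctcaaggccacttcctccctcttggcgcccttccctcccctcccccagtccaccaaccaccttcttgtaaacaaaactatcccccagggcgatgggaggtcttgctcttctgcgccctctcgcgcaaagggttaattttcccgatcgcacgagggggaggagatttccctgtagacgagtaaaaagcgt
Fads2: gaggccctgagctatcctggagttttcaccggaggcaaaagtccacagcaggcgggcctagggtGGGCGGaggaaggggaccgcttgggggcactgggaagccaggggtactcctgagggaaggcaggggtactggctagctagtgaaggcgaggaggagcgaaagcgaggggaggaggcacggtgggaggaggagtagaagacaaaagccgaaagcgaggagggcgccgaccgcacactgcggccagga
Fads3: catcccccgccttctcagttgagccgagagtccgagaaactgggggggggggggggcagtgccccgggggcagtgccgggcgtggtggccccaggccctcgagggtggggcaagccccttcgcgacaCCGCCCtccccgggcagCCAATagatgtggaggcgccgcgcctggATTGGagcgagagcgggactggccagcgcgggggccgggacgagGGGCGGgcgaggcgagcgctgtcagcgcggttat

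Each motif was searched on both strands, and its share is given over all 32851 windows of this length. A sterol regulatory element, read as TCACNCCAC, had a match in 1.05% of the windows. The E-box, read as CACGTG, was found in 6.02% of them. For the D-box, either TTATGNAA or the palindrome TTACGTAA was accepted, and 3.17% of windows held one. The nuclear receptor repeats DR1 and DR4, a pair of AGGTCA copies with 1 or 4 bases between them, were found in 0.0335% and 0.0152%. The RORE core, read as TAGGTCA and able to overlap an end of DR1 or DR4, was found in 2.23%. The CCAAT box, searched as ATTGG, was found in 33.8%, and the GC box, read as GGGCGG, in 32.7%. The Elovl5 window held an E-box from base -161 and CCAAT boxes from -71 and -17, counted back from the base before the start. The Fads3 window held CCAAT boxes from -106 and -78 and GC boxes from -123 and -34, and the Fads2 window held 1 GC box from -186. None of these letters occurred in the Elovl6 window. No motif of this list was in all 4 windows, which describes the letters only.

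Scd1 had the highest level per length of all members in each group. Its mean was 1350 ± 712 CPM per kb (SD, n = 10) in Fc mice and 881 ± 270 (n = 10) in Fc(mML1)B3 mice under the HFD, and 2699 ± 335 (n = 9) and 2438 ± 452 (n = 7) under the standard diet. Reads on Scd1 were 0.889% of all reads. Fads2 came second in all groups, from 259 ± 24.6 CPM per kb (SD, n = 9) in Fc mice under the standard diet to 384 (199 to 576, n = 10) in Fc mice under the HFD. The per-mouse ranges of Scd1 and Fads2 overlapped only in the Fc mice under the HFD, where the lowest Scd1 value was 437 CPM per kb and the highest Fads2 value was 576.

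Fads1, Elovl5 and Elovl2 followed in every group, in varying order, with means between 94.3 and 214 CPM per kb. Under the HFD, the range of Elovl5 overlapped those of Fads1 and Elovl2 in both groups, so the place of Elovl5 was not resolved. Every Fads1 value lay above every Elovl2 value within each of these groups. In Fc mice under the standard diet, Elovl5 (171 to 250 CPM per kb) lay above Elovl2 (109 to 168) in every mouse. Scd2 and Fads3 were low, with means of 3.71 to 4.67 and 3.33 to 7.09 CPM per kb, and the lowest library had 91 reads on Fads3 and 214 on Scd2. The place of Elovl3 moved most, from ninth of 10 in Fc mice to the sixth in Fc(mML1)B3 mice under the HFD, and from the sixth to the eighth under the standard diet.

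**Figure D1:**
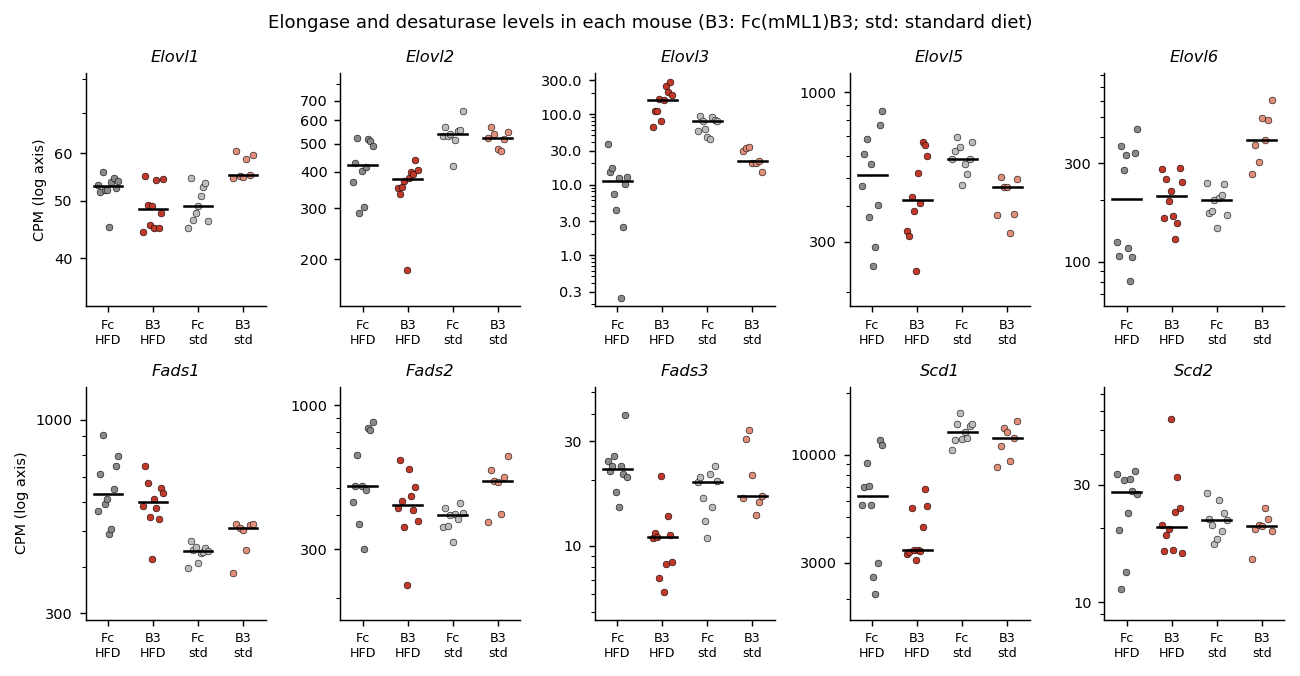
Level of each member in each mouse, in CPM on a log axis, for the 4 groups; each point is 1 mouse and each black line the group median. Elovl3 separated the groups in both experiments, in opposite directions, and Elovl6 separated them under the standard diet, while Scd1 spread from 2113 to 11838 CPM among Fc mice under the HFD.

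To see how Fc(mML1)B3 changed the members once choline had returned to the diet but its fat content stayed high, both HFD groups were compared. Elovl3 rose and Fads3 fell, and the other 8 members did not pass edgeR's quasi-likelihood test at an adjusted p of 0.05. The 2 of 10 called stand beside 14.8% of all 13299 genes tested (8.14% higher and 6.68% lower), so the share called was near the background. At the study's limits of an adjusted p under 0.1 and a fold over 2, both were called, beside 1.34% of all genes. The median log2 fold change of the members was -0.16, against -0.01 over all genes tested.

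Elovl3 ranged from 0.25 CPM, where it rested on 4 reads, through a median of 11.2 to 38.0 CPM in the 10 Fc mice. In the 10 Fc(mML1)B3 mice it ranged from 65.6 through 160 to 282 CPM. The groups did not overlap, which held for 0.91% of all genes tested. The log2 fold change was 3.76 ± 0.46 (SE), a 13.5-fold higher level (edgeR's quasi-likelihood test, adjusted p = 8.25e-06), higher in 10 of 10 mice than the median of the Fc mice.

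Fads3 ranged from 14.98 through 22.5 to 39.4 CPM in Fc mice and from 6.14 through 10.9 to 20.9 CPM in Fc(mML1)B3 mice. The ranges overlapped, but each of the 10 Fc(mML1)B3 values was under the Fc median. Its log2 fold change was -1.07 ± 0.18 (SE), a 2.10-fold lower level (edgeR, adjusted p = 0.000243). The summed level of 6 cholangiocyte markers (Krt19, Krt7, Epcam, Sox9, Spp1 and Cftr, genes of bile duct cells) had a median of 573 CPM (168 to 857) in Fc mice and 310 CPM (167 to 843) in Fc(mML1)B3 mice. None of the 6 passed edgeR's test (1 had an unadjusted p under 0.05, and DESeq2 called 0 and limma-voom 1), and their median log2 fold change was -0.24. None was at a median of 0 reads over all 36 libraries. Other marker lists had lower medians in the same comparison, with -0.89 for neutrophil markers (3 of 4 tested called lower by edgeR and DESeq2, 1 by limma-voom), -0.49 for lymphocyte markers (1 of 6 called lower) and -0.33 for stellate cell markers (0 of 6 called by edgeR, 1 at an unadjusted p under 0.05, and 0 by DESeq2 and 2 by limma-voom). The stellate cell sum had a median of 952 CPM in Fc mice and 772 CPM in Fc(mML1)B3 mice. The part of any of these cells in the Fads3 result was not tested.

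Scd1 varied widely among Fc mice and was not called. It ranged from 2113 through 6350 to 11838 CPM in Fc mice and from 3097 through 3457 to 6873 CPM in Fc(mML1)B3 mice, and 9 of 10 Fc(mML1)B3 values were under the Fc median. Fc mice 6, 7 and 8 were at 2113 to 2999 CPM and Fc mice 9 and 10 at 11838 and 11205 CPM, so the Fc group spanned both sides of the other group. Fc mice 6, 7 and 8 also had the 3 highest macrophage marker sums of the Fc group (1275 to 1406 CPM, against 725 to 1186 CPM in the other 7) and its 3 smallest libraries (15111050 to 15600932 reads), and the part of either in their Scd1 levels was not tested. On the log2 scale the fold change was -0.60 ± 0.27 (SE; edgeR, adjusted p = 0.134), with a 95% interval of -1.12 to -0.08 before adjustment for the number of genes.

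Fads2 had a log2 fold change of -0.36 ± 0.19 (adjusted p = 0.194), with 8 of 10 Fc(mML1)B3 mice below the Fc median. The remaining 6 members (Elovl1, Elovl2, Elovl5, Elovl6, Fads1 and Scd2) had log2 fold changes between -0.22 and -0.05 and adjusted p-values from 0.273 to 0.902. For Elovl6 the 95% interval ran from -0.66 to 0.43, so a change of such a size in either direction was not detectable with this spread. For Elovl1, the most even member among Fc mice (45.1 to 55.9 CPM), it ran from -0.20 to 0.02.

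When the elongase levels per length of each mouse were summed, Elovl3 made up 1.78% ± 1.74 (SD, n = 10) of the sum in Fc mice and 20.5% ± 5.48 (n = 10) in Fc(mML1)B3 mice. The share ranged from 0.0527% to 6.05% in the first group and from 11.1% to 30.8% in the second. Elovl5 held the largest mean share in both groups, at 49.5% ± 6.17 and 39.9% ± 4.61. A share falls when another member rises, and these shares were not tested.

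The standard diet experiment asked the same question after the high-fat diet had ended. Here Elovl6, Fads2 and Elovl1 rose and Elovl3 and Elovl5 fell. The 5 of 10 members called by edgeR's quasi-likelihood test stand beside 16.1% of the 13570 genes tested (8.56% higher and 7.55% lower). At an adjusted p under 0.05 and a fold over 1.5, one of the limits stated for this experiment, Elovl3 and Elovl6 were called, beside 2.36% of all genes. The members' median log2 fold change was 0.05, against -0.01 over all genes.

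Elovl3 ranged from 44.9 through 78.6 to 92.8 CPM in the 9 Fc mice and from 15.3 through 21.8 to 34.1 CPM in the 7 Fc(mML1)B3 mice. The groups did not overlap, as for 2.93% of all genes tested. The log2 fold change was -1.51 ± 0.18 (SE), a 2.85-fold lower level (edgeR, adjusted p = 1.01e-05). Its direction was thus the opposite of that under the HFD.

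Elovl6 ranged from 146 through 200 to 241 CPM (lowest, median and highest) in Fc mice and from 267 through 388 to 606 CPM in Fc(mML1)B3 mice, again without overlap. Fitted over the libraries, its log2 fold change was 1.09 ± 0.14 (SE), a 2.13-fold higher level (edgeR, adjusted p = 2.72e-05). The share of Elovl6 in the elongase sum per length was 7.31% ± 1.23 (SD, n = 9) in Fc mice and 17.3% ± 4.11 (n = 7) in Fc(mML1)B3 mice.

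Elovl5 ranged from 475 through 586 to 695 CPM in Fc mice and from 323 through 465 to 505 CPM in Fc(mML1)B3 mice. The ranges overlapped between 475 and 505 CPM, and each of the 7 Fc(mML1)B3 values was under the Fc median. It had a log2 fold change of -0.47 ± 0.09 (SE; edgeR, adjusted p = 0.0016).

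Fads2 ranged from 319 through 400 to 444 CPM in Fc mice and from 379 through 532 to 655 CPM in Fc(mML1)B3 mice, of which 6 of 7 lay above the Fc median. The log2 fold change was 0.41 ± 0.09 (SE; edgeR, adjusted p = 0.00538). Elovl1 ranged from 44.998 through 48.9 to 54.6 CPM in Fc mice and from 54.4 through 55.1 to 60.5 CPM in Fc(mML1)B3 mice, with all 7 above the Fc median, and its log2 fold change was 0.20 ± 0.05 (SE; edgeR, adjusted p = 0.00731). Library names carry sample numbers in 2 series here, and the one above 130 holds Fc mice 6 to 9 and all Fc(mML1)B3 mice. Within that series alone the log2 fold change was 0.33 ± 0.12 for Fads2 (adjusted p = 0.117) and 0.16 ± 0.05 for Elovl1 (adjusted p = 0.0869), and neither passed the test, whereas Elovl3, Elovl5 and Elovl6 did.

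Fads1 had a log2 fold change of 0.15 ± 0.06 and did not pass (edgeR, adjusted p = 0.0885). Its lowest Fc(mML1)B3 value, 384 CPM, came from mouse 1, and without that mouse the log2 fold change was 0.20 with an adjusted p of 0.00609. Scd1 spread less than under the HFD, from 10543 through 12990 to 15928 CPM in Fc mice and from 8770 through 12153 to 14692 CPM in Fc(mML1)B3 mice, with a log2 fold change of -0.15 ± 0.10 (95% interval -0.35 to 0.05, adjusted p = 0.357). Elovl2 (-0.06 ± 0.06), Scd2 (-0.11 ± 0.10) and Fads3 (0.25 ± 0.18) did not pass either, with adjusted p-values of 0.608, 0.483 and 0.376.

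**Figure D2:**
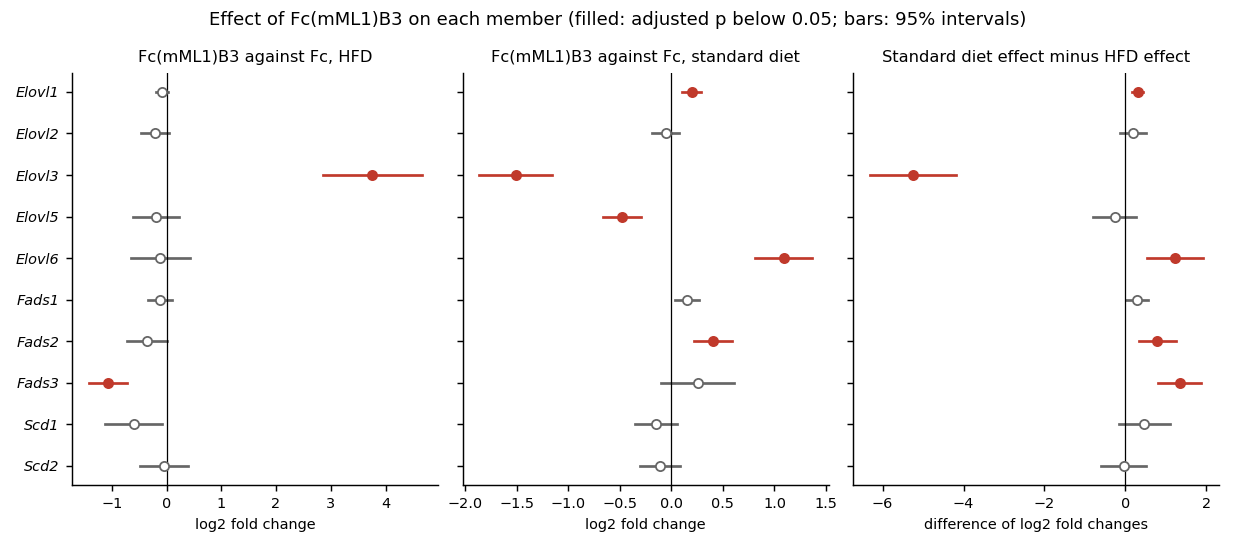
Log2 fold change of Fc(mML1)B3 against Fc under each diet, and the difference of these effects, for the 10 members, with 95% intervals before adjustment; filled points passed edgeR's test at an adjusted p below 0.05. Elovl3 lies at 3.76 under the HFD and at -1.51 under the standard diet.

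A fit over all 36 libraries with an interaction term asked whether the protein acted differently in the 2 experiments. The effect differed for 5 of 10 members, beside 9.06% of the 14105 genes tested, with 4 differences above 0 (4.66% of all genes) and 1 under 0 (4.4%). Diet, dosing, length of treatment and experiment changed together and cannot be told apart. The difference (standard diet effect minus HFD effect, log2) was -5.25 ± 0.54 for Elovl3 (SE; edgeR, adjusted p = 1.03e-08), 1.34 ± 0.27 for Fads3 (adjusted p = 0.000827) and 1.22 ± 0.35 for Elovl6 (adjusted p = 0.0212).

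Elovl1 differed by 0.30 ± 0.07 (SE; edgeR, adjusted p = 0.00466) and Fads2 by 0.79 ± 0.24 (adjusted p = 0.0262). The Fads2 call was lost without Fc(mML1)B3 mouse 2 (0.74, adjusted p = 0.0542) or mouse 7 (0.72, adjusted p = 0.0594) of the standard diet experiment. No difference was called for Elovl5 (-0.26 ± 0.27, 95% interval -0.79 to 0.27), although it passed the test under the standard diet and not under the HFD. The intervals for Scd1 (-0.17 to 1.11), Fads1 (0.02 to 0.56), Elovl2 (-0.14 to 0.50) and Scd2 (-0.60 to 0.51) also left room for sizeable differences.

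Levels in the 2 experiments were next compared among mice that received the same protein. In Fc mice, Elovl3 was higher under the standard diet by 2.55 ± 0.36 on the log2 scale, Scd1 by 1.00 ± 0.22 and Elovl2 by 0.35 ± 0.11 (edgeR's quasi-likelihood test, adjusted p = 4.2e-07, 0.000378 and 0.0102). Fads1 was lower, with a log2 fold change of -0.59 ± 0.10, as was Fads2, at -0.57 ± 0.16 (adjusted p = 3.9e-06 and 0.00396). These 5 of 10 members stand beside 47.9% of all genes called (23.3% higher and 24.6% lower), a share near the background. The Scd1 levels were 10543 to 15928 CPM under the standard diet and 2113 to 11838 CPM under the HFD, and all 9 mice under the standard diet lay above the HFD median. Elovl3 and Fads1 did not overlap between these groups, as for 9.42% of all genes.

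In Fc(mML1)B3 mice, Scd1 was higher under the standard diet by 1.47 ± 0.24 on the log2 scale, Elovl6 by 0.99 ± 0.26, Fads3 by 0.95 ± 0.20, Elovl2 by 0.53 ± 0.12 and Elovl1 by 0.22 ± 0.05. Elovl3 was lower, with -2.70 ± 0.40, and so was Fads1, with -0.30 ± 0.10 (edgeR, adjusted p at most 0.0185 for these 7). They stand beside 38.5% of all genes called (20.7% higher and 17.9% lower). Elovl3, Elovl2 and Scd1 did not overlap, beside 9.9% of all genes. The order of Elovl3 levels between the experiments thus turned with the protein, with HFD and standard diet medians of 11.2 and 78.6 CPM in Fc mice, and of 160 and 21.8 CPM in Fc(mML1)B3 mice. The groups share mice with the comparisons above, and the Fads1 call in Fc(mML1)B3 mice was lost without mouse 1 of the standard diet experiment (-0.25, adjusted p = 0.0623).

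Among the desaturases, Scd1 made up 66.6% ± 11.6 (SD, n = 10) of the summed level per length in Fc mice and 64.2% ± 7.25 (n = 10) in Fc(mML1)B3 mice under the HFD, and 87.1% ± 1.32 (n = 9) and 83.0% ± 1.28 (n = 7) under the standard diet. Fads2 held 21.8% ± 8.85 and 22.1% ± 5.76 under the HFD and 8.43% ± 0.94 and 11.7% ± 0.97 under the standard diet. Fads3 and Scd2 together never held more than a small part, with means of at most 0.413% and 0.363%.

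**Figure D3:**
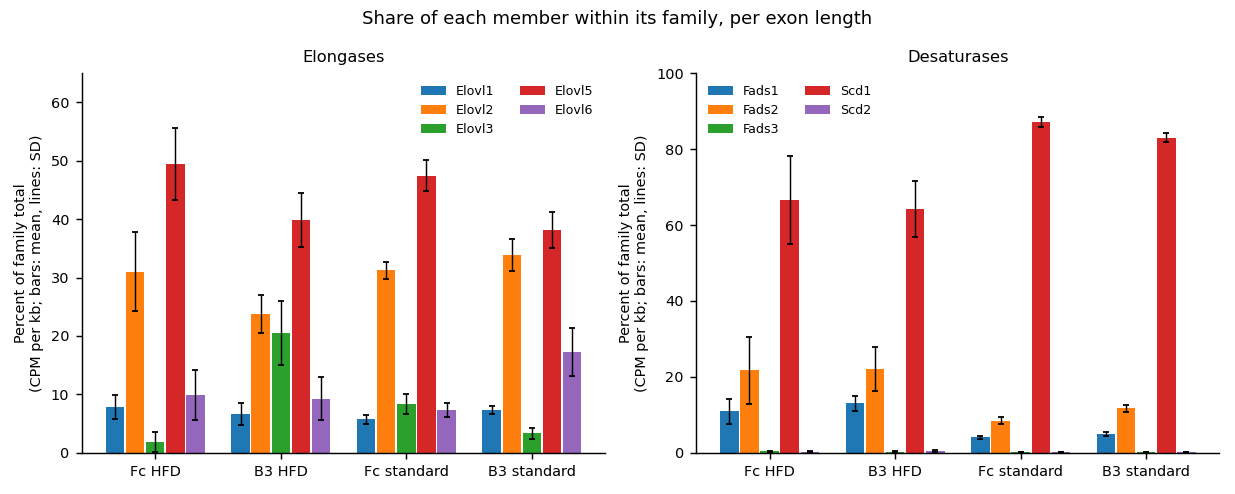
Share of each member in the summed level per exon length (CPM per kb) of the elongases, left, and of the desaturases, right, as the mean of the mice of each group with the SD. The Elovl3 share is 1.78% and 20.5% in the HFD groups and 8.28% and 3.32% in the standard diet groups, and Scd1 holds most of the desaturase sum in all 4.

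The members were followed by the genes they work with, in lists of pathway genes. The list for the supply of malonyl-CoA and palmitate held 8 genes, among them Acly (ATP citrate lyase), Acaca (acetyl-CoA carboxylase), Fasn (fatty acid synthase) and Thrsp, a lipogenic regulator. Under the standard diet, 4 of 8 rose and 0 fell, beside 8.56% higher and 7.55% lower of all genes tested, with a list median of 0.35 against -0.01 over all genes. These were Thrsp (1.88 ± 0.24, edgeR, adjusted p = 2.59e-05), Fasn (0.76 ± 0.17, 0.00433), Acly (0.52 ± 0.10, 0.000854) and Acaca (0.26 ± 0.06, 0.00504), beside the rise of Elovl6. Under the HFD, 0 of 8 passed edgeR's test, with 2 at an unadjusted p under 0.05, 0 called by DESeq2 and 1 by limma-voom, and the list median was -0.29. That count of 0 depended on single mice, since Acss2, an acetyl-CoA synthetase (-0.82 ± 0.29, adjusted p = 0.0583), was called lower in 3 of 20 fits without 1 mouse (Fc mouse 6, 7 or 8) and Thrsp (0.74 ± 0.33, 0.142) was called higher in 1 (Fc mouse 10). Without the 2 libraries least like their groups, Fc mouse 7 and Fc(mML1)B3 mouse 5, Acss2 had a log2 fold change of -0.94 ± 0.26 and was called (adjusted p = 0.0145). For the difference of the effect between the experiments, edgeR and DESeq2 called 0 of 8, with 6 at an unadjusted p under 0.05.

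Of the other enzymes of the elongation cycle, 0 of 6 were called under the HFD and 2 of 6 under the standard diet, beside 14.8% and 16.1% of all genes. Under the HFD, edgeR, DESeq2 and limma-voom called 0 of 6, with 0 at an unadjusted p under 0.05, and under the standard diet Hacd3, a 3-hydroxyacyl-CoA dehydratase, rose by 0.23 ± 0.05 (edgeR, adjusted p = 0.0015) and Hacd4 had a log2 fold change of -0.48 ± 0.13 (adjusted p = 0.019). Of the 4 electron donors of the desaturases, Cyb5a, which encodes cytochrome b5, rose in both experiments, by 0.32 ± 0.10 with the HFD (edgeR, adjusted p = 0.0423) and by 0.17 ± 0.05 with the standard diet (0.0257). Cyb5a lost its call without single mice, in 12 of 20 such fits under the HFD and 4 of 16 under the standard diet. Cyb5r1, a cytochrome b5 reductase, fell under the HFD (-0.42 ± 0.10, edgeR, adjusted p = 0.00836).

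Genes that activate, shorten or store the products were read beside the 14.8% of all genes called under the HFD and the 16.1% called under the standard diet (8.56% higher). Among acyl-CoA synthetases, Acsl1 rose under the HFD (0.80 ± 0.14, edgeR, adjusted p = 0.000472) and Acsl4, which prefers arachidonate, rose under the standard diet (0.31 ± 0.07, 0.00421), 1 of 4 tested in each experiment. Of 9 genes for the peroxisomal shortening of very long acyl-CoA, Hsd17b4 rose and Abcd2 fell under the HFD, at 0.33 ± 0.09 and -0.64 ± 0.18 (adjusted p = 0.0163 and 0.0224), and 3 rose under the standard diet, including Abcd3 (0.25 ± 0.07, 0.0129) and Acaa1a (0.17 ± 0.05, 0.0316). Acaa1a lost its call in 8 of 16 fits without 1 mouse. Of 5 tested genes of phospholipid remodelling, Lpcat3, which places polyunsaturated chains into phospholipids, fell under the HFD (-0.39 ± 0.09, 0.00323) and 0 passed edgeR, DESeq2 or limma-voom under the standard diet, where 0 had an unadjusted p under 0.05. Against Fc(mML1)B3 mice 1 to 4 alone, Cyb5r1, Cyb5a, Hsd17b4, Abcd2 and Lpcat3 were not called (adjusted p = 0.102, 0.0602, 0.0855, 0.166 and 0.199), nor were Hacd4, Cyb5a, Abcd3 and Acaa1a within the standard diet series above 130 (0.0587, 0.201, 0.0984 and 0.184). With Fc(mML1)B3 mice 5 to 10 alone Cyb5a, Hsd17b4 and Abcd2 were not called either (edgeR, adjusted p = 0.264, 0.0566 and 0.0515), so these 3 passed with neither series of the HFD experiment. Abcd2 was also not called by limma-voom (adjusted p = 0.0639), nor Cyb5a after upper-quartile scaling (0.0534) or without the filter (0.0622).

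Of 17 regulators, 4 rose and 2 fell under the HFD, and 3 rose and 1 fell under the standard diet, beside 14.8% and 16.1% of all genes called. The third riser under the standard diet, Rnf139 (0.13 ± 0.04, edgeR, adjusted p = 0.0493), lost its call in 13 of 16 fits without 1 mouse, after RLE or upper-quartile scaling, without the filter and within the series above 130 (adjusted p = 0.26). Insig2, which encodes an inhibitor of SREBP processing in the endoplasmic reticulum, rose under the HFD from 79.7 ± 25.7 CPM (SD, n = 10) to 211 ± 86.5 (n = 10) and fell under the standard diet from 167 ± 27.3 (n = 9) to 78.9 ± 3.86 (n = 7). Its log2 fold changes were 1.42 ± 0.21 and -1.09 ± 0.09 (edgeR, adjusted p = 6.94e-05 and 7.73e-08), so its signs were those of Elovl3. Srebf1, the gene of SREBP-1, rose under the standard diet (0.43 ± 0.09, adjusted p = 0.00251) and had a log2 fold change of -0.31 ± 0.14 under the HFD (adjusted p = 0.143). Ppard rose under the HFD (0.89 ± 0.17, adjusted p = 0.000865), though not against Fc(mML1)B3 mice 1 to 4 alone (0.38, adjusted p = 0.134). Mlx rose in both experiments (0.32 ± 0.07 and 0.34 ± 0.07, edgeR, adjusted p = 0.00531 and 0.00202). With Fc(mML1)B3 mice 5 to 10 alone it was not called under the HFD (0.27, adjusted p = 0.0501). Nr1h2 fell under the HFD (-0.29 ± 0.07, edgeR, adjusted p = 0.00349), though not against mice 1 to 4 alone (-0.19, adjusted p = 0.211).

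Genes of the circadian clock differed between the groups in both experiments, beside Elovl3, a gene with a daily rhythm. Under the HFD, 12 of 14 tested clock genes were called by edgeR, 5 higher and 7 lower, led by Arntl (3.98 ± 0.29, adjusted p = 1.08e-08) and Dbp (-3.31 ± 0.33, adjusted p = 5.38e-07). Under the standard diet 11 of 15 were called, 7 higher and 4 lower, among them Nr1d1 (-1.68 ± 0.15, adjusted p = 3.6e-07), Per2 (1.18 ± 0.13, 3.7e-06) and Arntl (-1.05 ± 0.27, 0.0108). Cry1 rose in both experiments (2.23 ± 0.20 and 1.16 ± 0.15, adjusted p = 3.45e-07 and 3.22e-05), whereas Arntl, like Elovl3, had opposite signs in them. Within groups Elovl3 and Arntl had r = 0.08 (adjusted permutation p = 0.809). The part of the clock, or of the hour at which livers were taken, in the members' results was not tested.

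**Figure D4:**
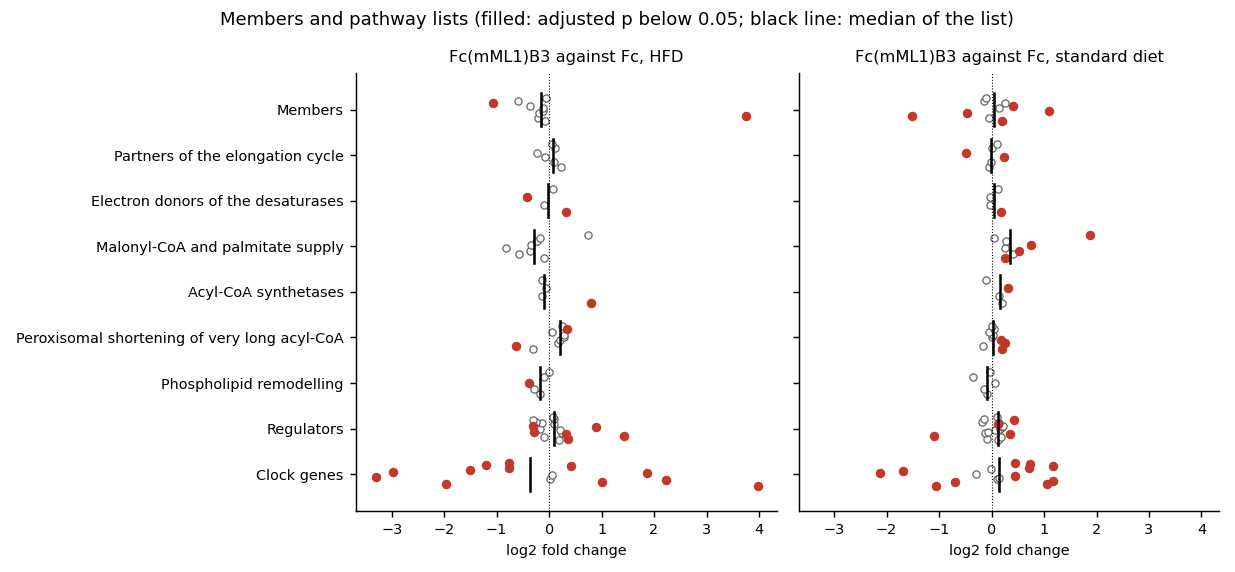
Log2 fold change of Fc(mML1)B3 against Fc for each tested gene of the members and of 8 pathway lists, with the HFD on the left and the standard diet on the right; filled points passed edgeR's test at an adjusted p below 0.05 and black lines are list medians. The clock genes spread from -3.31 to 3.98 under the HFD, and the palmitate supply genes lie mostly to the right of 0 under the standard diet.

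Members were also compared between mice of the same group. Over all 36 libraries, with the mean of each group removed from the log2 CPM, 10 of the 45 pairs of members were correlated at an adjusted p below 0.05, all positively (permutation within groups, 100000 resamples). The pairs joined Elovl2, Elovl5, Fads1, Fads2 and Scd1, with Elovl6 tied to Scd1 and Fads3 to Scd2. Within the HFD experiment alone 11 pairs were called, 10 positive and 1 negative, and within the standard diet experiment 2 pairs were called.

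Elovl5 and Scd1 had the highest correlation (Pearson's r = 0.81, permutation p = 1e-05, the smallest that the resampling can give, adjusted p = 0.0003, Spearman's rho = 0.76, permutation p = 1e-05, adjusted p = 0.00045). Within the HFD experiment r was 0.83 and within the standard diet experiment 0.65, where it was not called (adjusted permutation p = 0.0857), and without the 2 libraries farthest from the median of Elovl5 it was 0.78. For Fads1 and Fads2, neighbours on chromosome 19, r was 0.80 (permutation p = 2e-05, adjusted p = 0.0003, rho = 0.77 with permutation p = 2e-05), with 0.79 and 0.88 within the experiments and 0.78 without the farthest libraries. Elovl2 followed Fads2 with r = 0.78 (permutation p = 3e-05, adjusted p = 0.000337, rho = 0.68 with permutation p = 9e-05), with 0.81 and 0.55 within the experiments, the latter not called (adjusted permutation p = 0.0769), and 0.68 without the farthest libraries. Some other pairs of this block were less firm. Without the farthest libraries r was 0.40 for Elovl5 and Fads2, 0.52 for Elovl5 and Fads1 and 0.54 for Elovl2 and Fads1, none of them called (adjusted permutation p = 0.185, 0.0724 and 0.0589). Within the standard diet experiment these 3 pairs had r = 0.68, 0.59 and 0.36, again with no call (adjusted permutation p = 0.0769, 0.128 and 0.252).

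Elovl6 and Scd1 had r = 0.72 (permutation p = 0.00045, adjusted p = 0.00289, rho = 0.57 with permutation p = 0.00292). Within the HFD experiment r was 0.76 and within the standard diet experiment 0.38 (adjusted p = 0.423), and without the farthest libraries it was 0.60. Fads3 and Scd2 had r = 0.54 (permutation p = 0.00098, adjusted p = 0.0049, rho = 0.52 with permutation p = 0.00089), which rested in part on the farthest libraries, as r was 0.37 without them (adjusted p = 0.129). Of 40 pairs of a member with Srebf1, Insig2, Arntl or Nr1d1, 2 were called, Elovl5 with Insig2 (r = 0.73, permutation p = 3e-05, adjusted p = 0.0012, rho = 0.71 with permutation p = 9e-05) and Elovl3 with Insig2 (r = 0.55, permutation p = 0.00097, adjusted p = 0.0194, rho = 0.64 with permutation p = 0.00013). Their r was 0.75 and 0.57 within the HFD experiment, 0.52 and 0.35 within the standard diet experiment, where neither was called, and 0.72 and 0.61 without the farthest libraries.

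**Figure D5:**
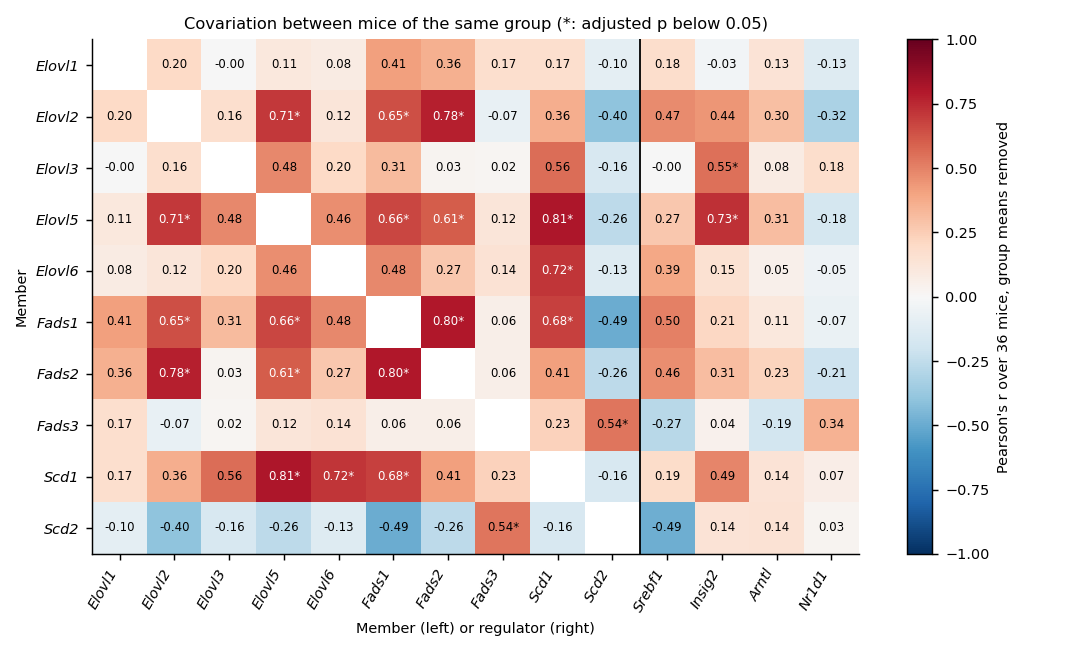
Pearson's r between the members, left of the line, and between members and 4 regulators, right of it, over 36 mice with group means removed from log2 CPM; an asterisk marks an adjusted permutation p below 0.05. Elovl2, Elovl5, Fads1, Fads2 and Scd1 form a positive block, whereas Scd2 is called with Fads3 only, and also with Elovl1 when library totals replace TMM scaling.

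Each member was also set beside all 14105 genes, and the genes with the highest r over the same 36 libraries are named as a description. Elovl6 was most like Acaca (r = 0.91), Fasn (0.84) and Acly (0.83), all from the list that supplies its substrate. Scd1 was most like Acacb (0.87), Cs (0.86) and Ugt1a5 (0.82), and Elovl3 most like Slco1a1 (0.86), C6 (0.83) and Rgn (0.81). By rank these 3 were less like Elovl3, with Spearman's rho of 0.55, 0.58 and 0.60. Fads2 was most like Tmem82 (0.85), Nadk (0.84) and Fads1 (0.80), Fads1 most like Fads2, Cyb5r3 (0.79) and Acsl5 (0.77), and Elovl2 most like Cps1 (0.83) and Fads2 (0.78).

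Scd1 (0.81) and Tmem135 (0.79) were among the 3 genes most like Elovl5, and Elovl1 had the weakest neighbours, led by Sigirr (0.61). Scd2 was most like Tspan8 (0.92), Tbc1d4 (0.92) and Cd24a (0.91). Fads3 was most like Ngfrap1 (0.74), Pappa (0.73) and Plet1 (0.72). Library depth, composition and the share of each cell type are common to the points of these correlations.

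The labelled tissue was checked against its markers. The 6 hepatocyte markers summed to 79821 to 154460 CPM in all libraries, and 4 of 6 adipocyte markers (Adipoq, Plin1, Lep and Retn) were at a median of 0 reads over all 36 libraries. The libraries least like their own groups were Fc mouse 7 (median r = 0.9643) and Fc(mML1)B3 mouse 5 (0.9646) of the HFD experiment. Mouse 5 also had the highest marker sums of its group for cholangiocytes (843 CPM), stellate cells (1411), macrophages (1178), lymphocytes, neutrophils and adipocytes and the lowest for hepatocytes (79821) and endothelial cells (174), together with the highest Scd2 (55.9 CPM) and Fads3 (20.9 CPM) and the lowest Elovl2 (184 CPM). Without both libraries the log2 fold change under the HFD was 3.69 ± 0.38 for Elovl3 and -1.22 ± 0.16 for Fads3 (edgeR, adjusted p = 1.86e-06 and 2.29e-05), and Elovl3 and Fads3 were again the 2 members called. Sample numbers in the library names split the HFD experiment into 1 series of Fc mice and 2 of Fc(mML1)B3 mice (1 to 4, and 5 to 10), so series and protein cannot be told apart there. Elovl3 and Fads3 were called against the Fc mice with either series alone.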

How the data were processed

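Liver RNA libraries were made with a directional kit and sequenced as pairs of 100 bases. Per the labels and the study's methods, the authors trimmed reads with fastp, removed ribosomal RNA with Bowtie2 2.4.5, aligned to mm10 with STAR 2.7.10a and counted with featureCounts (Subread 2.0.3). The deposited values are raw counts per gene, in which each end of a pair counts by itself, strand is ignored, and reads with several alignments or genes are left out. A level or a null result of a gene with few reads is therefore bounded by counting error beside the spread between mice. No 2 libraries of a group were duplicates, and 0 rows named no gene.

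From the counts, each experiment was fitted in edgeR 4.0.16 (R 4.3.3) after TMM scaling and the filter filterByExpr. Its quasi-likelihood test gave the p-values, adjusted by Benjamini and Hochberg's method over the genes that passed. The interaction and the comparisons between experiments were fitted over all 36 libraries. Standard errors were derived from the log2 fold change and its F statistic. The study's own limits (for the HFD an adjusted p under 0.1 and a fold over 2, for the standard diet 0.05 and 1.5, for which the study also gives 0.1 and 2) were counted beside. Alternatives were DESeq2 1.42.0, limma-voom (limma 3.58.1) with quality weights, other scalings, no filter, a replicate block, library series and each mouse left out, and the fit without 2 libraries was chosen after seeing the data. Correlations used log2 CPM with a prior count of 2, numpy 2.4.6 and pandas 2.3.3 in Python 3.11.15. The edgeR test was checked on simulated counts.

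The members and the lists were chosen with earlier results of these data known. Beside all members, the rule named 2 to 4 genes a list, those with the smallest p in each comparison, and the 3 genes most like each member. Of the genes so named, 1 is not reported here. Where such a gene is named in the other experiment too (Arntl, Srebf1) or a marker gene is named, it was chosen after its values were seen. Mice of a group are separate animals by their labels.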

Additional observations from a re-analysis of the deposited data

Results flagged for a closer look

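Of 40 combinations of a member and a group, 6 held 1 mouse whose CPM lay far outside the others by Dixon's test, which chance alone gives in about 1 of 20. In the Fc mice under the HFD these were Elovl1 at 45.1 CPM in mouse 6 (low), Elovl3 at 38.0 CPM in mouse 1 (high) and Fads3 at 39.4 CPM in mouse 9 (high). In Fc(mML1)B3 mouse 5 under the HFD, Elovl2 was low at 184 CPM, and Fads3 and Scd2 were high at 20.9 and 55.9 CPM. This mouse had the highest marker sums of its group for cholangiocytes, stellate cells, macrophages, lymphocytes, neutrophils and adipocytes, and the lowest for hepatocytes and endothelial cells. The part of this composition in the 3 values was not tested.

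By the interaction term of edgeR, 5 members responded differently to the protein in the 2 experiments. The differences (standard diet minus HFD, log2) were -5.25 for Elovl3, 1.34 for Fads3, 1.22 for Elovl6, 0.79 for Fads2 and 0.30 for Elovl1. For Elovl3 the effects within the experiments had opposite signs and both passed the test.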

How the results depend on the processing

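Elovl3 and Fads3 under the HFD and Elovl3, Elovl6 and Elovl5 under the standard diet were called with the same sign in every alternative run, except that the study's fold limit left 2 members under the standard diet (Elovl3 and Elovl6). The series above 130 left 3 members there. Genes called under the HFD were 1972, with 178 at the study's limits, 3039 by limma-voom, 1294 with a replicate block and 705 with Fc(mML1)B3 mice 1 to 4 alone. Under the standard diet they were 2186, with 320 at the study's limits, 1296 with the block and 942 in the series above 130. The interaction called 1278 genes, and 808 with the block.

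Replicate numbers did not pair the mice. Deviations of same-numbered mice correlated between -0.62 and 0.259 (1 of 10 pairs over 0.1) under the HFD and between -0.156 and 0.000932 (0 of 7) under the standard diet. With the block, the Fads2 interaction lost its call (0.78, adjusted p = 0.0704), and signs turned for Elovl6 under the HFD (0.0898) and the Scd2 interaction (0.0265), which were not called either way. Calls were also lost with the block for Hsd17b4 and Abcd2 under the HFD (adjusted p = 0.0584 and 0.102) and for Hacd4, Cyb5a, Acaa1a and Rnf139 under the standard diet (0.127, 0.132, 0.0602 and 0.208), and Thrsp under the HFD became called (1.05, 0.0378). Other turned signs, none called, were Elovl6 under the HFD by limma-voom (0.19), Scd2 under the HFD with mice 5 to 10 (0.15) and Degs1 under the HFD with mice 1 to 4 (0.0071). Leaving out 1 mouse gave -0.21 to 0.0452 for Elovl6 and -0.27 to 0.0086 for Scd2 under the HFD, and -0.11 to 0.17 for the Scd2 interaction. limma-voom called Fads1 under the standard diet (adjusted p = 0.0475).

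Upper-quartile scaling moved the share of higher calls from 54.9% to 44.6% under the HFD, from 48.6% to 34.5% between the Fc groups and from 53.6% to 36.8% between the Fc(mML1)B3 groups. There it shifted the median of all genes from -0.05 to -0.13 and from -0.02 to -0.11. It also called Elovl1 (-0.17) and Fads3 (-0.47) lower in Fc mice under the standard diet, and Fads3 was called as well without Fc mouse 6 (-0.45) or Fc(mML1)B3 mouse 5 (-0.40) of the HFD experiment. Pairs of members called correlated numbered 10, with 2 within the standard diet experiment, 6 without the farthest libraries and 12 with library totals in place of TMM scaling. The last setting added Elovl1 with Fads3 (r from 0.17 to 0.62) and Elovl1 with Scd2 (r from -0.10 to 0.60, with its sign turned; adjusted permutation p = 0.00116 and 0.00319). Pairs with regulators numbered 2, with 0 within the standard diet experiment. The causes were not tested.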

Other observations

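Other genes of these families were at or under the filter or showed no call for the protein. Elovl4, Scd3 and Scd4 did not pass the filter. Elovl7, Fads6, Degs1 and Degs2 were called neither under the HFD nor under the standard diet by edgeR, DESeq2 or limma-voom, with 0 at an unadjusted p under 0.05. Between the experiments, Fads6 was higher under the standard diet in Fc mice (log2 fold change 1.198 ± 0.22) and in Fc(mML1)B3 mice (1.27 ± 0.23), and Degs2, which encodes a dihydroceramide hydroxylase, was lower in both (-0.66 ± 0.21 and -0.77 ± 0.23; edgeR, adjusted p at most 0.00807 for these). Degs2 shares 487 exonic bases with Evl on the opposite strand.

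The cell type markers were read beside the shares of all genes called, which were 8.14% higher and 6.68% lower under the HFD and 8.56% higher and 7.55% lower under the standard diet. Of neutrophil markers 3 of 4 tested were lower under the HFD by edgeR and DESeq2 and 1 by limma-voom. Their sum was 67.9 and 61.8 CPM in Fc mice 7 and 8, against 13.3 to 23.8 CPM in the other 8 Fc mice. Of hepatocyte markers 3 of 6 were higher under the standard diet, and of stellate cell markers 2 of 6 were lower there. Of lymphocyte markers 1 of 6 was lower under the HFD, and of adipocyte and cholangiocyte markers 1 each was lower under the standard diet. For macrophage and endothelial markers edgeR called 0 of 6 in either experiment, with 3 and 1 at an unadjusted p under 0.05 under the HFD and 1 and 0 under the standard diet. DESeq2 called 0 of these, and limma-voom called 1 macrophage marker under the HFD.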
